A study of Mus musculus with 127 samples.

Results

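The 10 lysosomal genes described here were Ctsb, Ctsd, Ctss, Ctsz, Ctsh, Lamp1, Lamp2, Psap, Grn and Laptm5, chosen by name as cathepsins, lysosomal membrane proteins and related lysosomal glycoproteins, out of 23946 genes in the deposited table. All 10 were found in it. Their RNA was measured in 127 single cells of hindlimb marrow from wild-type C57BL/6 mice, enriched with beads for the receptor CD117 and sorted from a population the labels name GMP-P. The cells fell into 3 gates, of 46 CD11b+ Ly6g high cells (Ly6g high), 41 CD11b+ Ly6g low cells (Ly6g low) and 40 cells labelled CD11b+ with no Ly6g level given (CD11b+). CD11b is an integrin chain of myeloid cells and Ly6g a surface protein of granulocytes. The labels gave no age, animal or culture, so each gate counted as 1 sample and no difference below has a replicate check or a p-value. A deposited file gave each cell a class: 5 cells were called Mono, 4 Gran-1, 6 Gran-2, 5 Myelo-1, 72 Myelo-2, 9 Myelo-3, 16 Myelo-4 and 7 HSCP-2. The classes MDP, Multi-Lin and Eryth held 1 cell each. How the classes were made was not given in the sources used here, and if these expression values were used, class differences describe the grouping itself.

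Lysosomes are acid compartments in which proteins, lipids and sugars are broken down. Cathepsins are their proteases, made as inactive precursors and matured at low pH, while heavily glycosylated membrane proteins line the compartment. In mononuclear phagocytes this system processes engulfed material and antigen, and in granulocyte precursors related compartments become granules.

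Transcription of many lysosomal genes is driven by factors of the MiT/TFE family, which bind the E-box CACGTG within the longer CLEAR element. The 250 bases before the annotated start were therefore read for Ctsd and Lamp1, the 2 genes in whose window the E-box occurred, and for Ctss, the gene whose detection differed most between Mono and Gran cells and whose window held none of the motifs searched. They come from RefSeq, build GRCm38.p6, and are written 5′ to 3′ on the strand of the gene, with capitals for CACGTG or TCACGTGA. The windows are Ctsd at chr7:142387828-142388077 on the minus strand, Lamp1 at chr8:13158911-13159160 on the plus strand and Ctss at chr3:95526536-95526785 on the plus strand.
Ctsd: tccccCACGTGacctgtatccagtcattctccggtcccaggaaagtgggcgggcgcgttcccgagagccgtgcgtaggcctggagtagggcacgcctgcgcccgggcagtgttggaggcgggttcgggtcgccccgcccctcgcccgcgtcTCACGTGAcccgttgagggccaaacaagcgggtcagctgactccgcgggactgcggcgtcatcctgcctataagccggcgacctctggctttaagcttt
Lamp1: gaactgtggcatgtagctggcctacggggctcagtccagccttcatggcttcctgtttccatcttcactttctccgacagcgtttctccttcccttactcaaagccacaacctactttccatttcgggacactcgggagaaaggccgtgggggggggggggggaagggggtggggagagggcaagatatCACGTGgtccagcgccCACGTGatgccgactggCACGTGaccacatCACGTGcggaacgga
Ctss: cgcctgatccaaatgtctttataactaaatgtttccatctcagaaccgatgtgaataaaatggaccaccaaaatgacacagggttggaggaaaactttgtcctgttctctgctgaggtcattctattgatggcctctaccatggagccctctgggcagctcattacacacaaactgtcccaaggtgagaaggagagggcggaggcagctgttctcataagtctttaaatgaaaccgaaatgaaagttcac
The first E-box base lay 245 and 98 bases before the start in Ctsd, where the second copy is part of TCACGTGA, and 61, 45, 28 and 15 bases before it in Lamp1. On both strands of all 32851 promoter windows of that length, CACGTG occurred in 6.02%, TCACGTGA, which contains it, in 0.785%, and GAGGAAGT, a motif of the myeloid factor PU.1, in 2.44%. Of the 9 windows found for 8 of the genes (all but Ctsb and Ctsh), 2 held CACGTG, 1 TCACGTGA and 0 GAGGAAGT. A match is only a match of letters.

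Values are TPM, a transcript share scaled for transcript length, and a gene counted as detected in a cell at 1 TPM or more. TPM keeps no read depth, so the number of genes detected stands in for it: 4333 to 5173 in Mono cells (median 4679), 2989 to 5058 in the 10 Gran cells (4169) and 821 to 4503 in the 102 Myelo cells (2035). More genes of any kind were thus detected in Mono cells, and the part of this in the results was not tested. Some settings given below kept only cells with 1500 or more or with 3000 or more genes. The name Mono was set beside its markers. Of 18 monocyte markers 14 were detected in Mono cells, and Ifi205 and Ahr were among those at 0 in all of them. The transcription factor Irf8 averaged 275 TPM and the chemokine receptor Ccr2 126 TPM in Mono cells, and both were listed at 0 in every Gran cell. Without its highest Mono cell, Ly6g high cell 77, Irf8 averaged 109 TPM. The markers summed to 5101 to 13156 TPM in Mono and 4192 to 14465 TPM in Gran cells, because Ly6c2, one of them, averaged 6431 and 7722 TPM. Granulocyte markers summed to 21825 to 62541 TPM in Mono and 74580 to 157411 TPM in Gran cells, with a median of 522063 TPM in Myelo cells. Progenitor markers summed to 229 to 461 TPM in Mono and 1.94 to 840 TPM in Gran cells. Macrophage markers reached at most 87.1 TPM in a Mono and 1439 TPM in a Gran cell. Dendritic cell markers reached at most 0.54 TPM in a Mono cell.

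By mean TPM, 3 of the 10 genes were at least 2-fold higher in Mono than in Gran cells: Ctss, Ctsh and Ctsz. That share was near the 28.8% of all measured genes. The 3 encode cathepsins, but the cathepsin genes Ctsb and Ctsd were not higher. Ctsz lay at the 2-fold line and fell below it after rescaling without granule genes (log2 ratio 0.88). Ctsb, Ctsd, Lamp2 and Laptm5 were high in both groups. Grn was higher in Gran cells, but by less than 2-fold in some settings that left out a Mono cell. With means taken on the log2 scale, Ctsd (1.08), Lamp1 (2.01) and Psap (1.85) passed the line too, and Grn did not (-0.93).

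**Figure D1:**
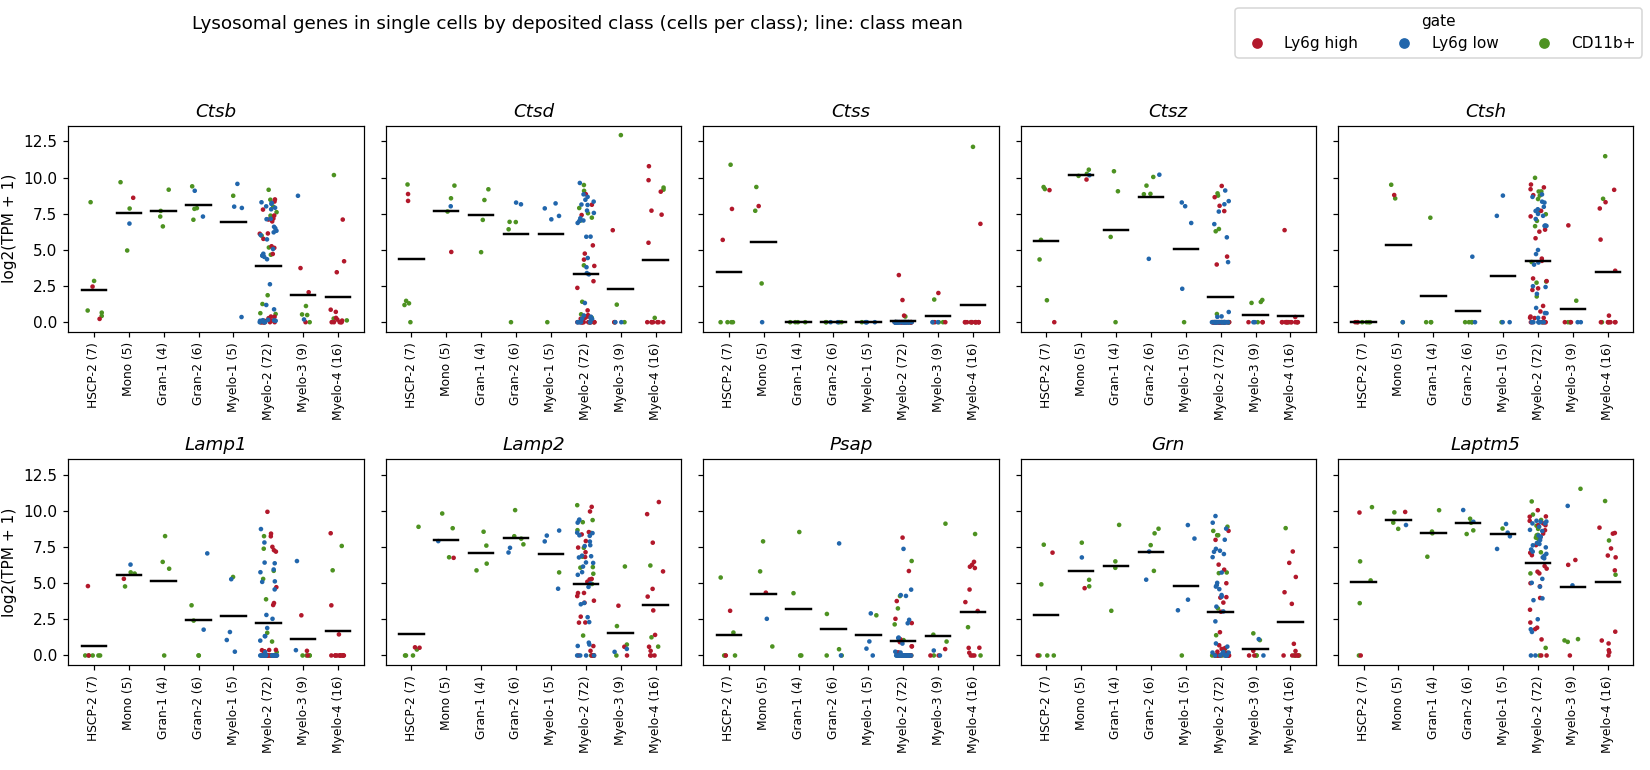
Each point is 1 cell, placed by its deposited class (cells per class in parentheses) on the x axis and by log2(TPM + 1) on the y axis, coloured by gate, with a line at the class mean. Ctss stood at 0 in all Gran and Myelo-1 cells, while Ctsz lay in a narrow band in the 5 Mono cells (10.19 ± 0.25, SD over cells).

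Ctss encodes cathepsin S, a cysteine protease that trims the invariant chain in antigen-presenting cells. Its levels in the Mono cells were 650.58 TPM in CD11b+ cell 47, 260.23 in Ly6g high cell 77, 207.51 in CD11b+ cell 36, 5.4 in CD11b+ cell 10 and 0 in Ly6g low cell 34. So 3 of the 5 were high, 1 was low and 1 showed none. It was listed at 0 in all 10 Gran cells, which allows a share of up to 30%, and was detected in 4 of 5 Mono cells (80%, exact 95% interval 28.4 to 99.5). In the Myelo classes it was sparse: 2 of 72 Myelo-2, 0 of 5 Myelo-1, 2 of 9 Myelo-3 and 2 of 16 Myelo-4 cells. It was detected in 3 of 7 HSCP-2 cells (42.9%, 9.9 to 81.6), and in 13 of 127 cells in all. The HSCP-2 mean, 310 TPM, was above the Mono mean of 225 TPM, with 87.2% of the HSCP-2 sum from CD11b+ cell 39. The intervals cover counting error only. The 2 Myelo-2 values were low, at 1.89 and 8.56 TPM. The HSCP-2 values were 1893, 227 and 50.6 TPM, from cells with 5, 1 and 2 of 18 monocyte markers detected. No fold is given against Gran cells, where every value was 0.

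Ctsh encodes cathepsin H, an aminopeptidase of the same family. The Mono values were 724.78, 442.34 and 376.31 TPM in CD11b+ cell 36, Ly6g high cell 77 and CD11b+ cell 47, and 0 in CD11b+ cell 10 and Ly6g low cell 34. The same 3 cells that were high in Ctss were thus the 3 with Ctsh. In Gran cells it was detected in 2 of 10, at 148.37 and 22.09 TPM, and the mean was 17 TPM against 309 TPM in Mono cells (log2 ratio 4.10, and 3.51 without Mono cell 36). Unlike Ctss, Ctsh was widespread in Myelo-2, at 1 TPM or more in 49 of 72 cells (68.1%, 56 to 78.6) with a mean of 133 TPM, and it was listed at 0 in all 7 HSCP-2 cells.

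**Figure D2:**
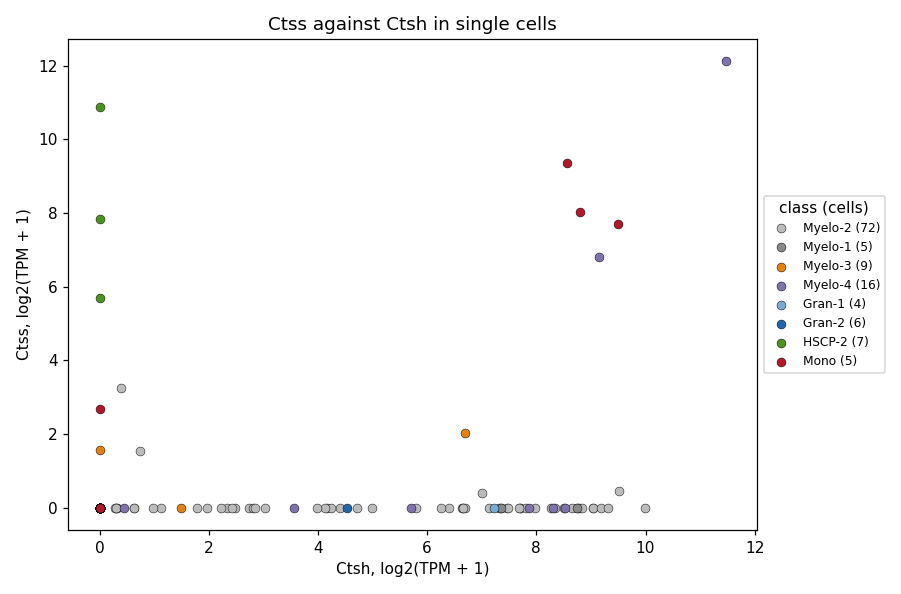
Ctsh (x axis) against Ctss (y axis), both as log2(TPM + 1), with 1 point per cell coloured by class. Points at the top right are 3 Mono and 2 Myelo-4 cells, HSCP-2 cells with Ctss sit on the y axis, and most Myelo-2 cells with Ctsh sit along the x axis.

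Of the 72 Myelo-2 cells, 49 had Ctsh alone, 2 had Ctss alone, 0 had both and 21 had neither at 1 TPM or more. In HSCP-2 the counts were 0 with Ctsh, 3 with Ctss alone and 4 with neither. Both genes were detected together in 3 Mono, 2 Myelo-4 and 1 Myelo-3 cell. Since Ctss was detected in only 2 of the Myelo-2 cells, the count of 0 with both carries little information.

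Ctsz encodes cathepsin Z, a carboxypeptidase. It was the most even gene in Mono cells: 1493.59 TPM in CD11b+ cell 47, 1225.5 in CD11b+ cell 10, 1144.22 in Ly6g low cell 34, 1107.97 in CD11b+ cell 36 and 930.18 in Ly6g high cell 77. Gran cells ran from 0 to 1384 TPM with a median of 499, so the classes overlapped. The means were 1180 and 584 TPM, a log2 ratio of 1.01 that lay at the 2-fold line. It was just under that line without Mono cell 10 of CD11b+, 0.91 without Mono cell 47 of CD11b+ and 0.88 after rescaling without granule genes. Myelo-2 cells had Ctsz in 17 of 72 (mean 58.4 TPM) and Myelo-4 cells in 1 of 16. The 7 HSCP-2 cells had it in 6, with values up to 649 TPM.

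Ctsb, the cysteine protease cathepsin B, was present in all Mono and Gran cells and overlapped between them. Mono cells had 818.65, 387.52, 231.28, 111.85 and 30.07 TPM, and Gran cells had 97.6 to 672 TPM with a median of 217. The means were 316 and 300 TPM (log2 ratio 0.07), and without Mono cell 47 the ratio was -0.66 and without Mono cell 77 -0.01. In Myelo-2 cells 45 of 72 had it, and in Myelo-4 cells 4 of 16.

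Ctsd, the aspartic protease cathepsin D, showed 695.66, 378.44, 257.59, 199.86 and 27.96 TPM in Mono cells. Gran cells ran from 0 to 583 TPM with a median of 128, and 1 of 10, CD11b+ cell 25, had none. The means were 312 and 201 TPM (log2 ratio 0.63, and 1.25 among CD11b+ cells alone). Myelo-2 cells had it in 37 of 72.

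Lamp1 and Lamp2 encode the 2 most abundant glycoproteins of the lysosomal membrane, and Lamp2 also serves chaperone-mediated autophagy. Lamp1 was low but even in Mono cells, at 77, 52.74, 49.78, 38.4 and 26.37 TPM. In Gran cells it ranged from 0 to 304 TPM with a median of 7.20, and was detected in 7 of 10. The means, 48.9 and 60.4 TPM, thus gave a log2 ratio of -0.30 while the mean log2(TPM + 1) was higher in Mono cells (5.55 ± 0.56 against 3.55 ± 3.18, SD over cells). By class, the mean log2(TPM + 1) of Lamp1 was 5.18 ± 3.59 in Gran-1, near that of Mono, and 2.45 ± 2.64 in Gran-2 cells. Lamp2 was present in all 5 Mono cells, at 901.25, 444.71, 239.19, 109.73 and 106.78 TPM, and in all 10 Gran cells, at 58.1 to 1059 TPM. The groups overlapped, with means of 360 and 285 TPM (log2 ratio 0.33, and -0.34 without Mono cell 36). Lamp2 was also found in all 5 Myelo-1 cells and in 55 of 72 Myelo-2 cells, but in 1 of 7 HSCP-2 cells.

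Laptm5, a lysosomal transmembrane protein of blood cells that lowers antigen receptor levels in lymphocytes, was the most widely detected of the genes, in 113 of 127 cells. Mono cells had 970.61, 951.71, 580.65, 518.32 and 431.63 TPM and Gran cells 113 to 1065 TPM. The ranges overlapped, with means of 691 and 558 TPM, and 66 of 72 Myelo-2 cells had it.

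Psap encodes prosaposin, the precursor of saposins that help degrade sphingolipids, and Grn encodes progranulin, a secreted and lysosomal glycoprotein that binds prosaposin. Psap was at 236.33, 55.3, 19.31, 4.8 and 0.54 TPM in Mono cells and at 0 to 370 TPM in Gran cells, with 4 of 5 and 4 of 10 cells detected. The means, 63.3 and 61 TPM, differed little, but the Mono mean was 20 TPM without its highest cell, CD11b+ cell 47, and the log2 ratio went from 0.05 to -1.56. Grn was the one gene at least 2-fold lower in Mono cells: 221.87, 108.88, 36.55, 26.51 and 24.18 TPM there, against 7.52 to 522 TPM with a median of 117 in Gran cells. Its log2 ratio was -1.18, which came to between -0.99 and -0.94 when Mono cell 10, 47 or 77 was left out, and to -1.93 without Mono cell 36.

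**Figure D3:**
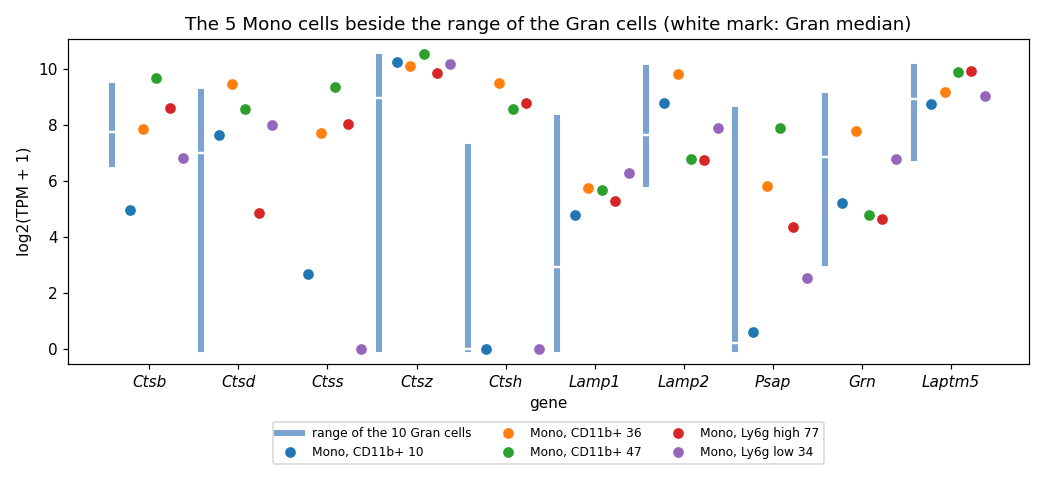
The y axis is log2(TPM + 1) for each gene on the x axis. Points are the 5 Mono cells, and the bar left of them spans the 10 Gran cells, with a white mark at the Gran median. Ctss has no bar because every Gran value was 0, while most Mono points of the other genes fall within the Gran range.

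Between Mono and Gran cells a gene was called measured when it was detected in 25% or more of the cells of either group, and called higher or lower at a 2-fold ratio of mean TPM, after adding 1 TPM to both means. Of 7085 measured genes 28.8% were higher and 23.9% lower in Mono cells. Of the 10 lysosomal genes 3 were higher and 1 was lower, a share near that of all genes for the higher side, and their median log2 ratio was 0.32 against 0.17 for all. The count therefore sets no lysosomal group apart. With the mean of log2(TPM + 1) in place of mean TPM, 6 genes were higher (36.9% of all) and 0 lower (17.4%): the call of Grn ended (-0.93), and Lamp1 (2.01), Psap (1.85) and Ctsd (1.08) joined Ctss, Ctsh and Ctsz. Rescaling without 34 granule genes, which took a median of 5.49% of TPM in Mono and 14.1% in Gran cells, moved the median of all genes by -0.14. After it 26.5% of all genes were higher and 26.1% lower, and among the 10 Ctss and Ctsh were higher, Grn lower, and Ctsb (-0.08) and Psap lay below 0.

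The same 3 Mono cells, Ly6g high cell 77 and CD11b+ cells 36 and 47, had all 10 genes at 1 TPM or more, and no other cell of the 127 did. The other Mono cells, CD11b+ cell 10 and Ly6g low cell 34, had 8 and lacked Ctsh, so this partly restates the Ctss and Ctsh values above. Gran cells had 6 to 8 and Myelo cells 1 to 9, with a median of 5. Genes of any kind detected per cell had medians of 4679 in Mono, 4169 in Gran and 2035 in Myelo cells. Summed over the 10 genes, Mono cells held 2401 to 5092 TPM and Gran cells 676 to 3658 TPM, so they overlapped.

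**Figure D4:**
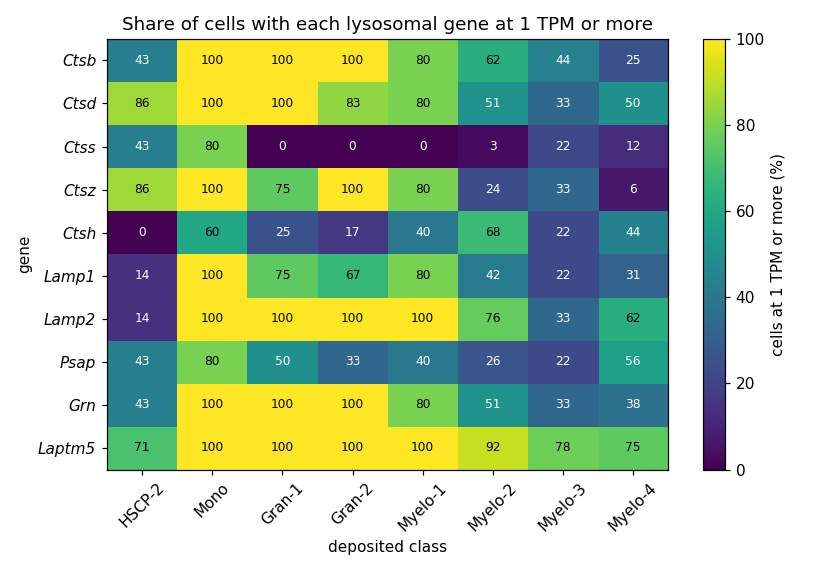
Colour and number give the percent of cells of each class (x axis) with each gene (y axis) at 1 TPM or more. Ctss is at 80 in Mono, 43 in HSCP-2 and 0 in Gran-1, Gran-2 and Myelo-1, whereas Ctsh is at 68 in Myelo-2 and 0 in HSCP-2.

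Set beside the 102 Myelo cells, 7 of the 10 genes had at least 2-fold higher means in Mono cells and 0 were lower, but so were 56.2% of the 6303 measured genes (12.5% lower). Their median log2 ratio was 1.23, against 1.26 for all. Relative to all genes, Ctsz stood highest, with 1180 TPM in Mono and 48.8 TPM in Myelo cells (log2 ratio 4.57), followed by Ctss with 225 and 45 TPM (2.30). Of the Ctss sum in Myelo cells 97.2% came from CD11b+ cell 46, and without it the Myelo mean was 1.25 TPM. With that mean the Ctss ratio was above that of Ctsz, so the order of these genes rests on 1 cell. Granule genes took a median of 58.5% of TPM in Myelo cells, and rescaling without them moved the median of all genes by -1.04. Under it 2 genes, Ctsz (3.51) and Ctss (2.25, cell 46 included), were higher and Lamp1 (-1.09) was lower, while Ctsd and Grn lay below 0, where 34.8% of all genes were higher and 25.6% lower. Among CD11b+ cells alone 4 genes were higher (56.3% of all), and Ctss was not (0.50, cell 46 included). Without CD11b+ cells 13 and 46 Ctsd was higher as well (1.36). Among cells with 3000 or more genes the calls of Ctsb and Laptm5 ended, Lamp1 was higher and Grn lay below 0. Calls of Ctsh and Lamp2 also ended without Mono cell 36 (0.51 and 0.50), that of Ctsh without Mono cell 77 (0.93) and that of Psap without Mono cell 47 (0.05). Without Mono cell 47 Ctsb (1.04) and Ctss (1.37) stayed past the line at smaller ratios, and Grn went to -0.48 without Mono cell 36 and Lamp1 to -0.09 without Mono cell 34.

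For each gene the classes were ordered by mean log2(TPM + 1). Mono came first for Ctsd, Ctss, Ctsz, Ctsh, Lamp1, Psap and Laptm5, and Gran-2 for Ctsb, Lamp2 and Grn. In none of the 70 pairs of neighbours in these orders was the gap larger than the larger SD over cells. HSCP-2 or Myelo-3 or Myelo-4 came last except for Ctss, where Gran-1, Gran-2 and Myelo-1 were at 0, and Psap, where Myelo-2 was last. For Ctsh, for instance, Mono (5.37 ± 4.92), Myelo-2 (4.23 ± 3.49), Myelo-4 (3.44 ± 4.28) and Myelo-1 (3.22 ± 4.44) followed each other closely.

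A pair of CD11b+ cells carried very high lysosomal values for their class. Cell 46, labelled Myelo-4, had 4460.93 TPM of Ctss, 2847.41 of Ctsh, 1152.67 of Ctsb and 446.5 of Grn, with 1811 genes detected. It was the highest of the 127 cells for Ctss, Ctsh and Ctsb. It also had 12 of 18 monocyte markers, whose sum of 14778 TPM ranked 1 of 127. Of that sum 10093.9 TPM was Ly6c2, which was also high in Gran cells. Tmsb10 was at 1577.5, Ccr2 at 1236.87, Klf4 at 972.03 and F13a1 at 728.74 TPM. Low values were those of Csf1r (11.07), Ly86 (4.47), Irf8 (3.42) and Cx3cr1 (2.97 TPM). The granulocyte markers of cell 46 summed to 2453 TPM and ranked 122. Its marker sums thus stood apart from those of the other Myelo cells, and its deposited label is kept here. Cell 13, labelled Myelo-3, had 7827.41 TPM of Ctsd, 553.26 of Psap and 2945.92 of Laptm5, the highest values of these genes, with 1304 genes detected. Of 13 macrophage markers it had 1, the iron exporter Slc40a1, at 4757.48 TPM, which put its macrophage marker sum at rank 1 of 127. It had 11 of 16 granulocyte markers, but their sum of 60338 TPM ranked 112.

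Differences between gates were read with these cells in view. The gate comparisons share cells, so they are not independent. The column names of each gate carry a prefix of their own, and any batch that a prefix marks cannot be told apart from the gate. The gates also differed in their mix of classes: CD11b+ held 8 Gran, 3 Mono, 5 HSCP-2 and 22 Myelo cells, Ly6g low 2 Gran, 1 Mono, 0 HSCP-2 and 37 Myelo cells, and Ly6g high 0 Gran, 1 Mono, 2 HSCP-2 and 43 Myelo cells, of which 13 were Myelo-4. In Ly6g high cells against Ly6g low cells, 9 of the genes were measured, 0 were 2-fold higher and 2 lower, where 7.96% of 3983 genes were higher and 23.7% lower. The median log2 ratio was -0.28, against -0.29 for all genes. The 2 were Grn, whose mean was 28.9 TPM against 99.6 TPM (log2 ratio -1.75), and Ctsb, with 50.7 against 122 TPM (-1.25, and -0.31 in Myelo-2 cells alone). Ctss was found in none of the 41 Ly6g low cells, where 0 allows a share of up to 7.32%, and in 7 of the 46 of the Ly6g high gate. Those 7 were the 1 Mono cell of that gate, its 2 HSCP-2 cells and 4 Myelo cells. Of the 4 Myelo cells, 1 had Ctss at 10 TPM or more. Ly6g high cells also had fewer genes detected, with medians of 1695 and 2521.

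CD11b+ cells had 4 of 9 measured genes 2-fold higher than Ly6g low cells and 0 lower, where 30.3% of 4774 genes were higher and 7.83% lower. The median log2 ratio was 0.67, against 0.48 for all. The 4 were Psap (1.93), Ctsd (1.33), Ctsz (1.25) and Ctsh (1.13). Without CD11b+ cells 13 and 46 the count was 2 (29.4% of all genes), with Ctsd at 0.19 and Ctsh at 0.57. In Myelo-2 cells alone Ctsh was the one gene higher (1.33, with 17% of all genes), and Psap (0.18), Ctsd (0.14) and Ctsz (0.61) were not. With the mean of log2(TPM + 1) Ctsd (-0.095) and Ctsh (-0.29) were below 0. Against Ly6g high cells 6 of 9 measured genes were higher and 0 lower in CD11b+ cells, where 44.5% of 4447 genes were higher and 6.93% lower (medians 1.46 and 0.83). These were Ctsz (2.04), Grn (1.87), Ctsb (1.83), Ctsd (1.61), Psap (1.46) and Laptm5 (1.07), and without cells 13 and 46 Ctsd (0.47), Psap (0.60) and Laptm5 (0.88) were below the line (44.2% of all genes higher). In Myelo-2 cells alone, where 23.2% of all genes were higher, the calls of Ctsz (0.38), Ctsb (0.85) and Laptm5 (0.72) ended and Psap was at -0.59, while Ctsd (1.87), Grn (1.82) and Ctsh (1.14) were higher. Rescaling moved the median of all genes by 0.15, -0.45 and -0.59 in the 3 gate comparisons in the order given. It left 1 gene higher (Psap) in the first of the CD11b+ pairs, where 19.6% of all genes were higher and 16.1% lower. In the other 3 were higher (Ctsb, Ctsz and Grn) and Lamp1 lower, where 29.7% were higher and 16.5% lower.

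Myelo-2, the class with most cells in each gate, was also compared alone. Ctsh was detected in 13 of 14 Myelo-2 cells of CD11b+ (92.9%, 66.1 to 99.8), 20 of 31 of Ly6g low (64.5%, 45.4 to 80.8) and 16 of 27 of Ly6g high (59.3%, 38.8 to 77.6). Its mean in them was 250, 98.4 and 112 TPM. Ctsd was detected in 57.1%, 64.5% and 33.3% of these cells, with means of 141, 128 and 37.7 TPM, and Grn in 57.1%, 61.3% and 37%, with means of 116, 96.2 and 32.1 TPM. Ctsz was detected in 28.6%, 22.6% and 22.2%. The intervals of every gene overlapped between the gates. The median number of genes detected in these cells was 2259, 2282 and 2030.

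**Figure D5:**
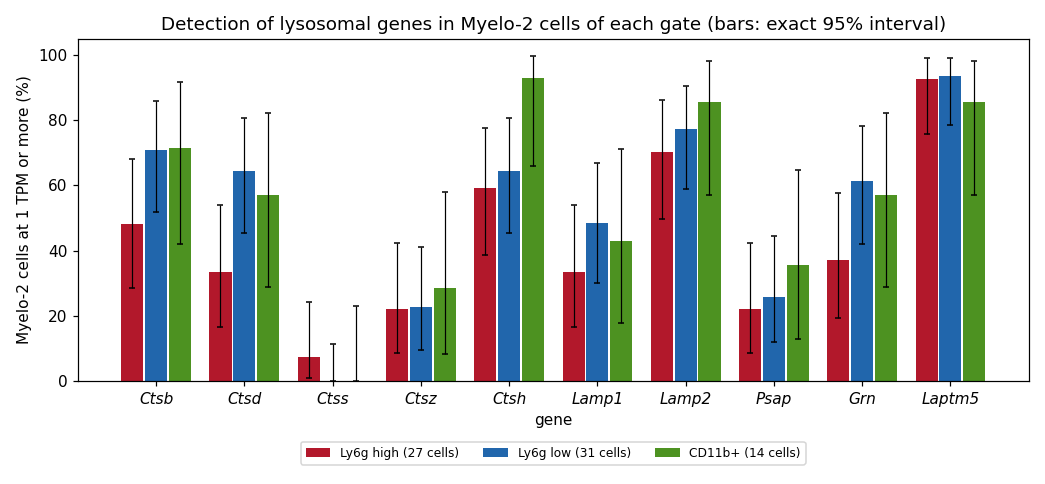
Bars give the percent of Myelo-2 cells (y axis) with each gene (x axis) at 1 TPM or more, for 27 Ly6g high, 31 Ly6g low and 14 CD11b+ cells, and whiskers give exact 95% intervals. Ctsh in CD11b+ cells (92.9%) is the tallest cathepsin bar, and all whiskers of a gene overlap.

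The wider lysosomal pathway was described with lists of other genes, again for Mono against Gran cells. Of 39 hydrolases 31 were measured, 9 higher and 9 lower, with a median log2 ratio of 0.64 (0.17 for all measured genes, of which, as above, 28.8% were higher and 23.9% lower). The serine carboxypeptidase gene Scpep1 averaged 97.9 TPM in Mono cells and was listed at 0 in Gran cells. Smpd1, acid sphingomyelinase, averaged 49.9 and 1.36 TPM, whereas Galns, a keratan sulfate sulfatase, averaged 3.83 and 91.7 TPM and the iduronidase gene Idua was listed at 0 in Mono cells and averaged 41.6 TPM in Gran cells. Of 5 other measured cathepsins 3 were higher and 2 lower: Ctsl averaged 50.9 and 1.16 TPM and Ctsc, which activates granule serine proteases, 88.7 and 5.92 TPM, while Ctsg, itself a granule serine protease, averaged 1819 and 4080 TPM. Of 20 other measured membrane proteins and carriers 9 were higher and 4 lower, among them Cd63, a tetraspanin of granules and late endosomes, at 382 and 2421 TPM, and Scarb2, the receptor that carries glucocerebrosidase, at 35.6 and 1.18 TPM. The V-ATPase, which acidifies the lysosome, had 16 measured subunits, 1 higher and 6 lower (median -0.55), with Tcirg1 at 73.5 and 220 TPM.

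Of 24 measured sorting and maturation genes 5 were higher and 5 lower, of 17 autophagy and uptake genes 4 and 6, and of 4 cysteine protease inhibitors 0 and 1. Against the shares of all genes these counts set none of these lists apart. Fcer1g, the shared Fc receptor gamma chain, averaged 1259 TPM in Mono and 346 TPM in Gran cells. Of 13 measured regulators 3 were higher and 2 lower. Tfec, a member of the MiT/TFE family named above, averaged 344 and 142 TPM, and 0.0055 TPM in the 102 Myelo cells, where it was detected in 0 cells. It was found in 80% of Mono and 90% of Gran cells.

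Across all 127 cells the 10 genes varied together only weakly. The 45 pairwise Spearman correlations of log2(TPM + 1) ranged from -0.09 to 0.37 (Ctsb with Ctsd), with a median of 0.15, and the median was 0.04 over the 72 Myelo-2 cells. For each gene detected in 25% of cells the most similar genes were taken among 3452 genes so detected, which left out Ctss. Ctsz was most like Acot7 (rho 0.59) and Ptges3 (0.59), Ctsb like Slc25a17 (0.51), Laptm5 like Bzw1 (0.51), Lamp2 like H2afv (0.49), Ctsh like C3 (0.47), Ctsd like Cstb (0.47), Grn like Coro1b (0.46), Lamp1 like Rsl24d1 (0.41) and Psap like Trp53 (0.35). Over the 72 Myelo-2 cells these values were lower for every pair but Lamp2 and H2afv, which rose to 0.54. They fell to rho 0.28 for Ctsz and Acot7, 0.29 for Ctsz and Ptges3, 0.28 for Ctsh and C3 and 0.15 for Ctsd and Cstb. All cells share the number of genes detected as a common factor, with which the 9 genes had rho values of 0.07 (Psap) to 0.54 (Ctsz).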

How the data were processed

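Each deposited sample was 1 cell, and the authors deposited the expression of 23946 genes in 127 cells as log2(TPM + 1). The unit follows from the values, since undoing the logarithm gave close to the same TPM total in every cell (lowest 999633). Per the labels' protocols, lysis took place on a Fluidigm C1 chip, followed by SMARTer cDNA synthesis, Nextera XT libraries and 150 bp paired-end reads of 96-cell libraries. Bowtie2, RSEM and mm9 are named per the submitters' processing notes, and the sources used here give no versions or annotation.

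The log2 values were converted to TPM with Python 3.11.15, pandas 2.3.3 and scipy 1.17.1. Groups were compared as the log2 ratio of mean TPM after adding 1 TPM, which understates differences of low genes. Cells are not replicates, so no test between groups was run, and SDs describe the spread over cells. Clopper-Pearson 95% intervals and the limit for a share of 0 (3 counts) cover counting error only. All cells were used, no doublet caller was run, and cells were not reclustered. The comparison step was checked on resampled Ly6g low cells in which large differences had been planted in well-detected genes. That check did not cover groups as small as the Mono class or ratios near the 2-fold line.

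The genes and lists were chosen with earlier results of these data known. Besides markers, a list gene was named only if measured, among the 3 highest or 3 lowest ratios of its list, and averaging at least 10 TPM in a group compared, and which of these to name was settled after their values were seen. Alternatives changed the pseudocount, the kind of mean, the filter, the scaling and the cells used. Promoter windows were matched by symbol in another build than the authors'.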

Additional observations from a re-analysis of the deposited data

Results flagged for a closer look

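Within the Gran cells, 2 values lay far below the rest by Dixon's outlier rule, among 19 sets of gene and class looked at. Chance alone sets off such a mark in about 1 in 20 sets. That rate assumes normally distributed log2 values, and the Ctsd value was at 0, the lowest possible. Ctsd was at 0 TPM in CD11b+ cell 25, a Gran-2 cell, while the next lowest Gran cell was at 27.66 TPM. Laptm5 was at 112.78 TPM in CD11b+ cell 9, a Gran-1 cell, with the next lowest at 336.53 TPM. On the log2 scale the gap came to 0.527 and 0.486 of the whole range of the 10 cells, above the limit of 0.466. The reason was not tested.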

How the results depend on the processing

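With 1 sample a gate and 5 Mono cells, these results are limited by cell number, by detection that moved with genes per cell, and by single cells that set a mean. No paired analysis was possible because cell numbers do not link cells of different gates or classes, and no test between groups was run. The alternatives chosen after seeing the data were cells with 3000 or more genes, not run for pairs with the Ly6g high gate, where fewer than 3 such cells remained, and leaving out CD11b+ cells 13 and 46. Percentages in parentheses are the share of all measured genes past 2-fold in the same direction and setting.

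With the mean of log2(TPM + 1), Mono over Gran had 6 genes higher (36.9%) and 0 lower (17.4%), Ly6g high over Ly6g low had 6 lower (39.7%), and CD11b+ over Ly6g low had 2 higher (12.2%), with Ctsd at -0.095 and Ctsh at -0.29. Leaving out each Mono cell gave 0 to 1 genes lower for Mono over Gran. Mono over Myelo had 4 higher without the highest cell of each group (43.1%), 4 in the CD11b+ gate alone (56.3%), and 2 higher (34.8%) and 1 lower (25.6%) after rescaling without granule genes. Ly6g high over Ly6g low had 1 higher with no filter (14.4%), 1 higher in Myelo-2 cells alone (13.1%), and 1 higher (10.8%) and 1 lower (20.5%) in cells with 1500 or more genes. CD11b+ over Ly6g low had 2 higher without the highest cell of each group (27.6%), 1 after rescaling (19.6%), 1 in Myelo-2 cells (17%), 2 without cells 13 and 46 (29.4%), and 2 in cells with 3000 or more genes (33.7%), where Ctsh was at -0.065. CD11b+ over Ly6g high had 3 higher (29.7%) and 1 lower (16.5%) after rescaling, 1 lower in cells with 1500 or more genes (8.47%), 3 higher in Myelo-2 cells (23.2%), where Ctss was at -0.45 and Psap at -0.59, and 3 higher without cells 13 and 46 (44.2%). The causes were not tested. All other counts lay within 1.5 times the reported ones.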
